A study of Mus musculus with 4 samples.

Results

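Among the transcribed regions assembled from total RNA of C2C12 cells, mouse myoblasts that leave the cell cycle and fuse once serum is withdrawn, 1563 lay more than 100000 bp from every named locus. They were taken from 61630 entries of which 36780 were assembled units, regions with an XLOC_ identifier and no gene name. A unit was kept when its interval overlapped no named entry and the nearest named entry on the same chromosome was farther than 100000 bp. Expression played no part in that rule, but a unit is listed only because reads built it in at least 1 of the libraries. The comparison used 1 library of proliferating myoblasts (MB, labelled DM -24 h, before differentiation medium) and 1 library of myotubes (MT, DM 72 h), both of unmodified C2C12 cells. RNA was depleted of ribosomal RNA before sequencing. The other 2 libraries, myotubes at DM 48 h given a control siRNA or an siRNA against Hnrnpl, list no assembled unit and were not used. With 1 library per condition no test was made, and each error given is an interval for read counting and assignment that does not cover the spread between cultures.

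Long stretches without annotated genes are commonly called gene deserts. RNA can come from them through unannotated long noncoding RNAs, through enhancers that RNA polymerase II transcribes, through first exons and introns of gene models longer than the one used, and through processed pseudogenes and other copies of expressed sequences. In muscle, enhancers of the differentiation program carry E-boxes, the hexamers bound by MyoD and myogenin. Myogenic differentiation also ends the cell cycle, so that growth-linked genes fall as contractile genes rise.

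The sequences below show the members on which the results turn, read from mm9 on its plus strand, since the tables give no strand. The first 4 are the central 300 bases of units that rose or fell, with each CAGCTG E-box in capitals. XLOC_001495 had the largest rise and holds 3 such hexamers in this window, XLOC_005762 fell and holds 1, and XLOC_003461 and XLOC_037215 rose and hold none.
XLOC_001495, chr1:149160689-149160988: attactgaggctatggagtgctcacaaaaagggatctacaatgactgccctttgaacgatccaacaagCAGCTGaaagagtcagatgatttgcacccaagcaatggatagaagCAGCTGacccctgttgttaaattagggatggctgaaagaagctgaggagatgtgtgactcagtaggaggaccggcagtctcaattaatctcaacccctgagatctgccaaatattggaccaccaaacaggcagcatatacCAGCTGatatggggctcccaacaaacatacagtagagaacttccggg
XLOC_003461, chr1:130640193-130640492: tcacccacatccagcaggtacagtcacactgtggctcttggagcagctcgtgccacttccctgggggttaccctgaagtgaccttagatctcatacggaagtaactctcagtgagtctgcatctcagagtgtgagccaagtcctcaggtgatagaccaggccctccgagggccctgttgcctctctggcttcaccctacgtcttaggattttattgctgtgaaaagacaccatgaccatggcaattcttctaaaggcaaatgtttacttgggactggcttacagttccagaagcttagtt
XLOC_037215, chr2:113007922-113008221: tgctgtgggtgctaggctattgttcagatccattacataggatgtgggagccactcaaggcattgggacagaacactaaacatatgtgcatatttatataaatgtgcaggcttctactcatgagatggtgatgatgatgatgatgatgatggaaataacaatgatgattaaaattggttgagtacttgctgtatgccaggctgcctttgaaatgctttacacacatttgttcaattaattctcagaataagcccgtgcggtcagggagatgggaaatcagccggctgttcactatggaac
XLOC_005762, chr10:120069965-120070264: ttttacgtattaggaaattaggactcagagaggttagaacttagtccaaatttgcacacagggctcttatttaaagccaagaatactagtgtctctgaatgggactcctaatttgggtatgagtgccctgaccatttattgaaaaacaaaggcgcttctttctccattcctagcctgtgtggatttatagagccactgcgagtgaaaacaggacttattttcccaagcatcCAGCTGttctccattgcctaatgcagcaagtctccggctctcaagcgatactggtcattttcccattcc

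The next 3 were chosen because they were the members with the highest FPKM in MB. In XLOC_022397 capitals mark bases inside a 32-mer that a coding transcript holds on either strand, transcripts annotated there not being left out. In XLOC_040202 they mark bases inside a 32-mer that another assembled unit holds. XLOC_065010 is shown whole, without marks.
XLOC_022397, chr15:52309505-52309804: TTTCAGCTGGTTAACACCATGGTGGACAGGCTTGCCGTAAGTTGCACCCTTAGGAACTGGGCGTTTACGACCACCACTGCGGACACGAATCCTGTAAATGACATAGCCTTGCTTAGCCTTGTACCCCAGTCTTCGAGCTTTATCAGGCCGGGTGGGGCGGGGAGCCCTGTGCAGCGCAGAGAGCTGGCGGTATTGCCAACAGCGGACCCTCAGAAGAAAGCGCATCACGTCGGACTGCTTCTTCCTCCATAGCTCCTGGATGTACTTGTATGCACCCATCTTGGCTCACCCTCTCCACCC
XLOC_065010, chrX:90143843-90144094: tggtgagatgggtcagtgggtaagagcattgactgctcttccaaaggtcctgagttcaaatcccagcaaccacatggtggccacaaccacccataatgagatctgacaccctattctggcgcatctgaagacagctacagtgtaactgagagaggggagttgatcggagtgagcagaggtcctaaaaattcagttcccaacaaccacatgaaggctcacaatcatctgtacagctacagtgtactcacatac
XLOC_040202, chr3:5860335-5860634: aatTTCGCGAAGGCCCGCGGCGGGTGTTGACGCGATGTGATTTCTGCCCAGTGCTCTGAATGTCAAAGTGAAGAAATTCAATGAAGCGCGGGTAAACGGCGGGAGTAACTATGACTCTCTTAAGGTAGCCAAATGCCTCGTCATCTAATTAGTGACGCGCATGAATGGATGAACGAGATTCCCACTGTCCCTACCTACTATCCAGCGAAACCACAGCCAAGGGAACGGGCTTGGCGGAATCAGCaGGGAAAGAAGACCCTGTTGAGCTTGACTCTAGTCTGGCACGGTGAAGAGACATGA

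Marker levels followed the labels. Of the myotube markers fixed for this comparison, 6 were listed and 6 were higher in MT by at least 0.58 on the log2 scale, Myog going from 0.695 to 251 FPKM. The 6 growth markers were lower, Ccnb1 going from 123 to 13.7. The 3 endothelial markers were at 0.0241 FPKM or less, whereas the fibroblast gene Dcn rose from 0.503 to 63.1, Pdgfra was at 2.14 and 3.38, and Thy1 was at 0.00766 and 0.0438. Of the neural markers Nes was at 126 and 150, Tubb3 fell from 56.4 to 11.4 and Map2 rose from 0.689 to 3.09. RNAs that are retained in the nucleus were higher in MT, Malat1 (161 to 628), Neat1 (14.3 to 48.8) and Xist (24.6 to 66.4), and the part of nuclear RNA content in the changes described next was not tested.

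The members were short and sparse in the genome. Their spans had a median of 1037 bp and ran from 200 to 297900 bp, and their distance to the nearest named locus had a median of 163499 bp. The part of mm9 that lies this far from named loci came to 751 Mb, 28.3% of the assembled chromosomes, so the members occurred at 2.08 per Mb of it. The density differed between chromosomes, from 4.19 per Mb on chromosome 15 and 3.88 on chromosome 12 to 0.536 on chromosome 19 and 0.357 on chromosome 18, and chromosome Y held 0. Members also sat close to each other. Joining those within 10000 bp gave 402 groups, 211 of a single unit, while 82 groups of 5 or more units held 1065 members (68.1%).

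The number of fragments behind each FPKM gives a length for the assembled transcript without introns, not the part of a span that was transcribed. Over units of 500 to 2000 bp of every class, which are treated as unspliced, fragments per FPKM rose with span along a line, and this line was used to turn the ratio into an implied transcript length. Among the 247 members of 2000 to 10000 bp with at least 10 fragments in MT, the implied length had a median of 100.1% of the span, as for a single unspliced block. Among the 60 members over 10000 bp it had a median of 8.95% of the span, and 44 fell under 50%. XLOC_018622, the longest unit (chr14:53921779-54219678, 297900 bp), held an implied 879 bases and read 0.470 FPKM in MB and 0.7505 in MT. It crosses T cell receptor alpha variable segments in the GENCODE annotation. XLOC_007171 on chr10:109651772-109892880 held an implied 2628 bases and rose from 0.112 to 1.02 FPKM, from 23 to 218 fragments. XLOC_002339 on chr1:35682698-35862169, the third of the longest, was listed at 0 in MB and at 0.300 in MT from 10 fragments. XLOC_025568, 718130 bp from Epha6, was the one of the other 16 with the highest FPKM. It was a block of 16407 bp with an implied length of 100.1% of its span, read at 2.33 FPKM in MB and 4.83 in MT. Of its 32-mers 32.2% occur once in mm9, and the median number of copies was 8.

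Levels were low and were lower in MB. The median FPKM was 0.0546 in MB and 0.264 in MT, from a median of 4 and 18 fragments. An FPKM above 0.05, the detection limit used here, was reached by 816 members in MB (52.2%) and by 1489 in MT (95.3%). Of these, 742 passed in both libraries, 747 in MT and not in MB, and 74 in MB and not in MT. In MB 334 members were listed at 0 against 18 in MT, and an FPKM of 1 was reached by 45 members in MB and 141 in MT. A unit assembled from the reads of 1 library alone had to be lower in the other, and the 662 members below 3 fragments in MB had a change above 0 without exception.

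**Figure D1:**
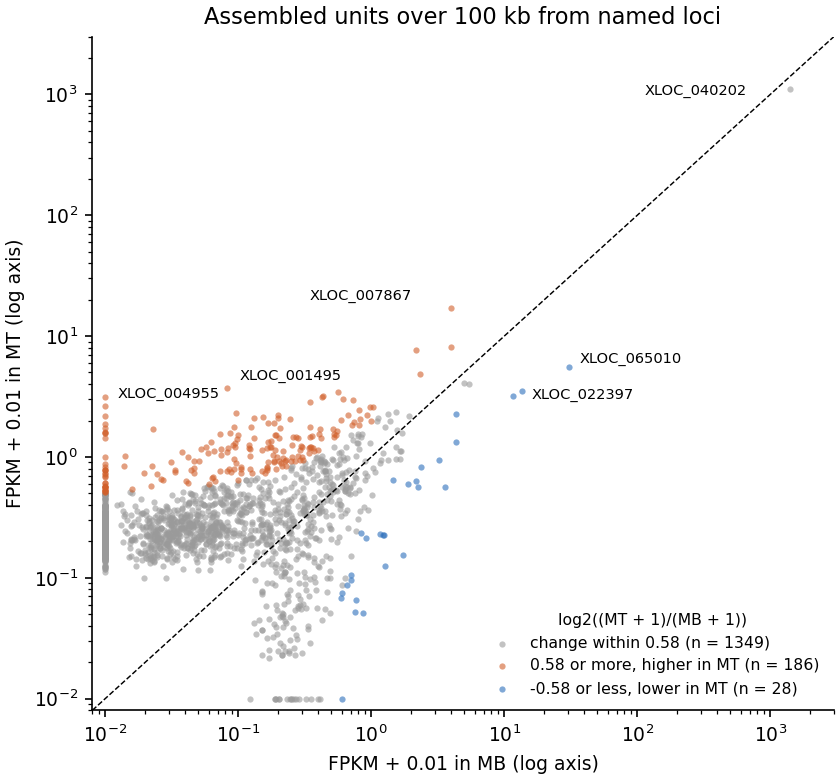
FPKM of each of the 1563 members in MB (x axis) and MT (y axis), both with 0.01 added and on log axes, coloured by the change on the log2(FPKM + 1) scale, with the dashed line marking equal values. Most points form a band near 0.3 FPKM in MT that runs from 0 upward in MB, a smaller band near 0.2 FPKM in MB reaches down in MT, and XLOC_040202 stands alone at 1417 and 1114.

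For the change, 1 was added to each FPKM and the log2 ratio of MT to MB was taken, a scale on which low units move little. Its median over the members was 0.25, with quartiles at 0.12 and 0.39, and 1290 members (82.5%) were above 0. A change of 0.58 or more, the 1.5-fold threshold, was reached by 186 members (11.9%), where 15.0% of all entries, 19.8% of all assembled units and 7.81% of named genes passed it. A change of -0.58 or less was reached by 28 members (1.79%), against 7.37% of all entries, 3.09% of all units and 13.7% of named genes. The share upward was below that of all units here and after centring on named genes (29.9% against 35.9%). It was above that of all units with a pseudocount of 0.1 (73.4% against 62.2%), as the members are mostly below 1 FPKM. The classes of other units also differed on the scale used here. A change of 0.58 or more was reached by 30.1% of units overlapping a named locus, 3.84% of those within 5000 bp and 8.52% of those 5000 to 100000 bp away. The count of intervals gave another order. The deposited 95% intervals of MB and MT did not overlap and MT was higher in 985 members (63.0%), against 33.3% of all entries, 42.3% of all units and 20.1% of named genes. MT was lower, again without overlap, in 118 members (7.55%), against 15.1%, 6.61% and 27.7%. Of the 985, 633 had under 3 fragments in MB. Among the 901 members with at least 3 fragments there, 352 (39.1%) were apart upward and 118 (13.1%) downward, against 32.03% and 8.09% of all units chosen in the same way. By the change of 0.58 the order was the other way, with 12.7% of these 901 up and 3.11% down, against 18.0% and 3.79% of all units so chosen.

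The shares differed with the distance to named loci, though not in a single order. Intervals were apart and higher in MT for 47.9% of units 5000 to 100000 bp away, 31.8% of those within 5000 bp and 41.7% of those overlapping a named locus. Detection in MB fell with distance, from 90.5% of overlapping units through 83.2% and 67.5% to 52.2% of the members, while in MT every class was between 94.1% and 99.0%. Within the members, median changes varied little with distance. The 258 beyond 500000 bp had a median change of 0.26, the 306 between 200000 and 500000 bp a median of 0.23, and the 999 nearer than that a median of 0.26. A change of 0.58 or more was reached by 8.91%, 7.19% and 14.1% of these, and the median share of 32-mers that occur once was 81.6%, 93.9% and 98.2%.

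**Figure D2:**
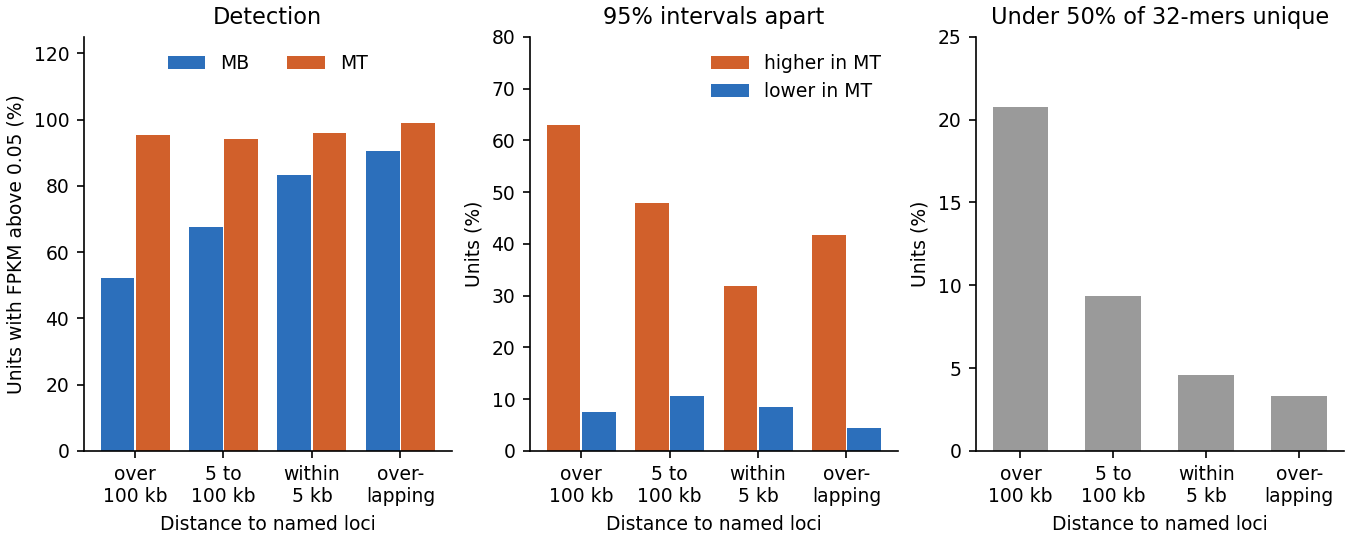
Share of assembled units with an FPKM above 0.05 in MB and MT (left), share whose 95% intervals in the libraries do not overlap (middle) and share whose central 300 bases hold under 50% of 32-mers that occur once in mm9 (right), in percent, by distance to named loci. The members (over 100 kb) have the lowest detection in MB at 52.2%, the highest share apart upward at 63.0% and the highest share of repeated sequence at 20.7%.

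**Figure D3:**
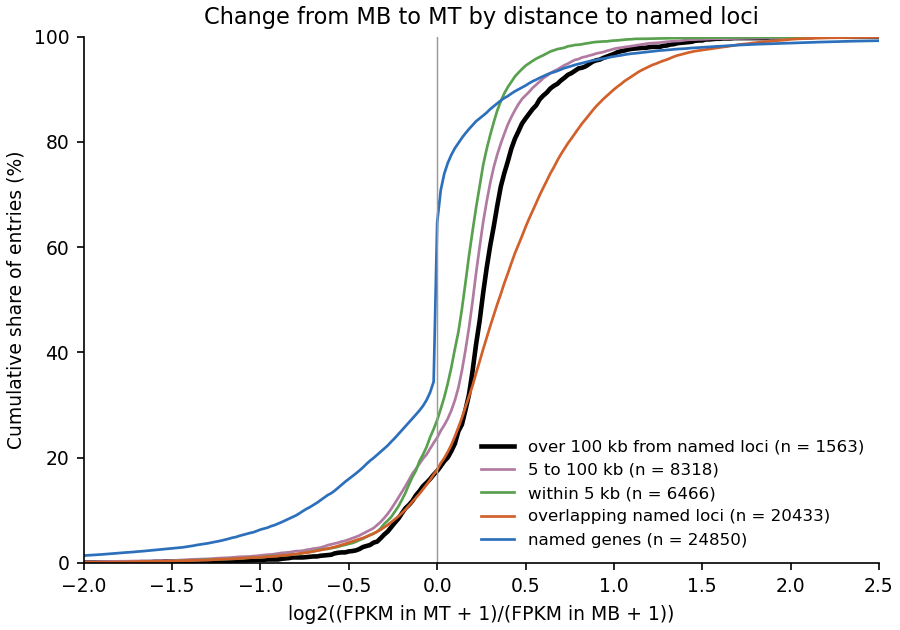
Cumulative share of entries (percent, y axis) against the change from MB to MT on the log2(FPKM + 1) scale (x axis) for the members and 4 other classes. The curve of the members crosses 50% at 0.25, between units 5 to 100 kb away (0.20) and overlapping units (0.35), and has few values beyond 1.

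Summed over the members, fragments went from 86862 in MB to 138369 in MT, a ratio of 1.52 after the difference in depth (95% exact binomial interval 1.505 to 1.531, counting error only). A single unit held most of the MB sum. Without XLOC_040202 the sum went from 30675 to 91874 fragments, a ratio of 2.85 (interval 2.82 to 2.89). The same ratio was 1.68 for the other assembled units and 0.850 for named entries. The ratio of the members was thus below that of the other units with XLOC_040202 and above it without, while units with related sequence stayed among the others. These sums run over units that the reads of the same libraries assembled. In bulk RNA, fewer cells that make an RNA and less of it per cell cannot be told apart.

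XLOC_040202 (chr3:5860335-5860972, 284086 bp from Pex2) read 1417 FPKM in MB (interval 1406 to 1429) and 1114 in MT (1103 to 1124). It was lower in MT, the intervals being apart, at a ratio of 0.789. The printed stretch is recognisable as part of 28S ribosomal RNA, the RNA of the large ribosomal subunit, from general knowledge, since no such sequence was among the reference tables. It is shared with 4 other assembled units, among them XLOC_016344 (2539 and 1983 FPKM), which matches over 203 bases at 97.0% identity, and XLOC_033436 (457 and 378 FPKM), which matches over 295 bases at 97.3%. On the log2 scale these 2 changed by -0.36 and -0.27, beside -0.35 for XLOC_040202. None of its 32-mers occurs in the listed locus of Rn45s, the ribosomal RNA precursor, which went from 1047 to 646 FPKM. How the aligner placed reads among these copies was not tested. The part that depletion of ribosomal RNA in each library had in these levels was not tested either. XLOC_001103 (chr1:115800574-115800853), the farthest member at 1780860 bp from Cntnap5a, is another of these units, at 0.783 and 1.47 FPKM with overlapping intervals. It is far from named entries only, since in the GENCODE annotation it lies in an intron of 9330185C12Rik, a long noncoding RNA gene. The next farthest, XLOC_004817 and XLOC_004819 on chromosome 10, read 0.0158 and 0.0279 FPKM in MB from 2 fragments each, and 0.188 and 0.359 in MT from 25 and 27.

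Repeated sequence was more frequent among the members than among other units. In the central 300 bases, under 50% of 32-mers occurred once in mm9 in 324 members (20.7%), against 4.98% of other units and 9.33% of those 5000 to 100000 bp away. Over the whole unit, 289 members were under 50%. Summed fragments of those 289 gave a ratio of 0.984 (interval 0.973 to 0.994), with XLOC_040202 among them, and the other 288 gave 1.92 (interval 1.878 to 1.963), from 11704 to 23588 fragments. The 1274 mostly unique members gave 3.43 (interval 3.37 to 3.49), from 18971 to 68286 fragments. The median change was 0.20 and 0.26, and 11.8% and 11.9% passed 0.58. Chromosome 12, with 174 members, was where the repeated ones gathered: 129 of them were under 50% unique. Their median change was 0.03, beside 0.27 for members on the other chromosomes, and in the 45 mostly unique members of chromosome 12 it was -0.14.

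The members were poorer in GC than other units and richer than the sequence around them. The median GC share of the central 300 bases was 41.0%, against 44.0% in other units and 38.7% in 300-base windows tiled over all sequence this far from named loci. CAGCTG, which reads the same on both strands, was present in 12.7% of members, 13.3% of other units and 8.13% of the tiled windows. TGACTCA on either strand, the AP-1 motif, was present in 5.82%, 5.76% and 4.17%. A 10-letter motif of MEF2, searched on either strand, was present in 0.256%, 0.0767% and 0.0919%, in 4 members. CACACACA or its complement was present in 5.12%, 7.30% and 7.18%. Among the 186 members past 0.58 upward, 20 (10.8%) held CAGCTG.

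Some members lay in genes once the GENCODE gene models of the same build were laid over them. A gene model was overlapped by 270 members, with 229 in introns alone and 41 touching an exon, and 147 lay in a protein-coding gene. For Kcnip4, Ryr3 and Dlg2, which held 52, 30 and 23 of them, the named entry in the tables is shorter than the annotated gene. Members beyond 100000 bp of every GENCODE gene as well numbered 719, and their median change of 0.25 and 63.3% apart upward were near those of all 1563. The 147 in protein-coding genes had a median change of 0.38, and 131 of them were apart upward and 1 downward. By both annotations, then, 719 of the 1563 lay in a gene desert of this width.

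Ryr3, a ryanodine receptor calcium channel of the sarcoplasmic reticulum, accounted for the group with the most units past 0.58. Its named entry covers chr2:112471539-112870488 and rose from 0.858 to 5.78 FPKM, but the annotated gene, on the minus strand, runs to 113057253. In its intron at chr2:112978202-113023807, 107713 bp from the named entry, 30 members spanned 45.6 kb. Their FPKM was 0 to 0.191 in MB and 1.08 to 3.13 in MT, so the libraries did not overlap in any of the 30, and summed fragments went from 96 to 1107 (ratio 11.0, interval 8.91 to 13.7). XLOC_037215, shown above, was listed at 0 in MB and at 1.73 in MT from 34 fragments, at least 8.31-fold higher by the counting interval and 10.8-fold against a floor of 3 fragments.

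The largest group by count lay in Kcnip4, which encodes an interactor of voltage-gated potassium channels. The 52 members at chr5:49777635-49915618 are intronic in the annotated gene, while the named entry ends at 49676898 and read 0.302 FPKM in MB and 0.620 in MT. Their median FPKM was 0.0125 in MB and 0.260 in MT, 19 were listed at 0 in MB, and 51 were apart upward. Summed fragments went from 66 to 1206, a ratio of 17.4 (interval 13.6 to 22.7). The named entry, with FPKM intervals of 0.210 to 0.394 and 0.490 to 0.751, made a smaller step. The steps are not like measures, since reads of these libraries assembled the members and not the named entry. A unit built from MT reads alone had to be lower in MB. A like pattern, under the same limit, was found at Dlg2, a synaptic scaffold gene, chosen after its values were seen. Its 23 members, in introns upstream of a named entry that read 0.00836 and 0.216 FPKM, held 1 fragment in MB and 781 in MT, and 22 of them were listed at 0 in MB.

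Other large groups lay outside protein-coding genes. The second by count, 40 members at chr15:72002925-72125271 between Col22a1 and Kcnk9, overlapped no annotated gene. Their median FPKM went from 0.0123 to 0.248 and summed fragments from 83.1 to 1132 (ratio 12.98, interval 10.4 to 16.4), and 39 were apart upward although 0 passed 0.58. Levels in MT were higher in the part nearer Col22a1 and fell off along the group. The third, 31 members at chr4:23187912-23325029 between Pnky and Mms22l, lay mostly in Gm11884 (30 of 31) and went from 93.8 to 614 fragments (ratio 6.24, interval 5.00 to 7.82). A group of 27 members at chr1:100549736-100670769 between Slco6d1 and Cntnap5b, named after its values were seen, had the largest summed level of these, from 123 to 4730 fragments (ratio 36.6, interval 30.6 to 44.2). All 27 were apart upward and 12 passed 0.58. Both genes beside it were listed at 0 in MB and MT.

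**Figure D4:**
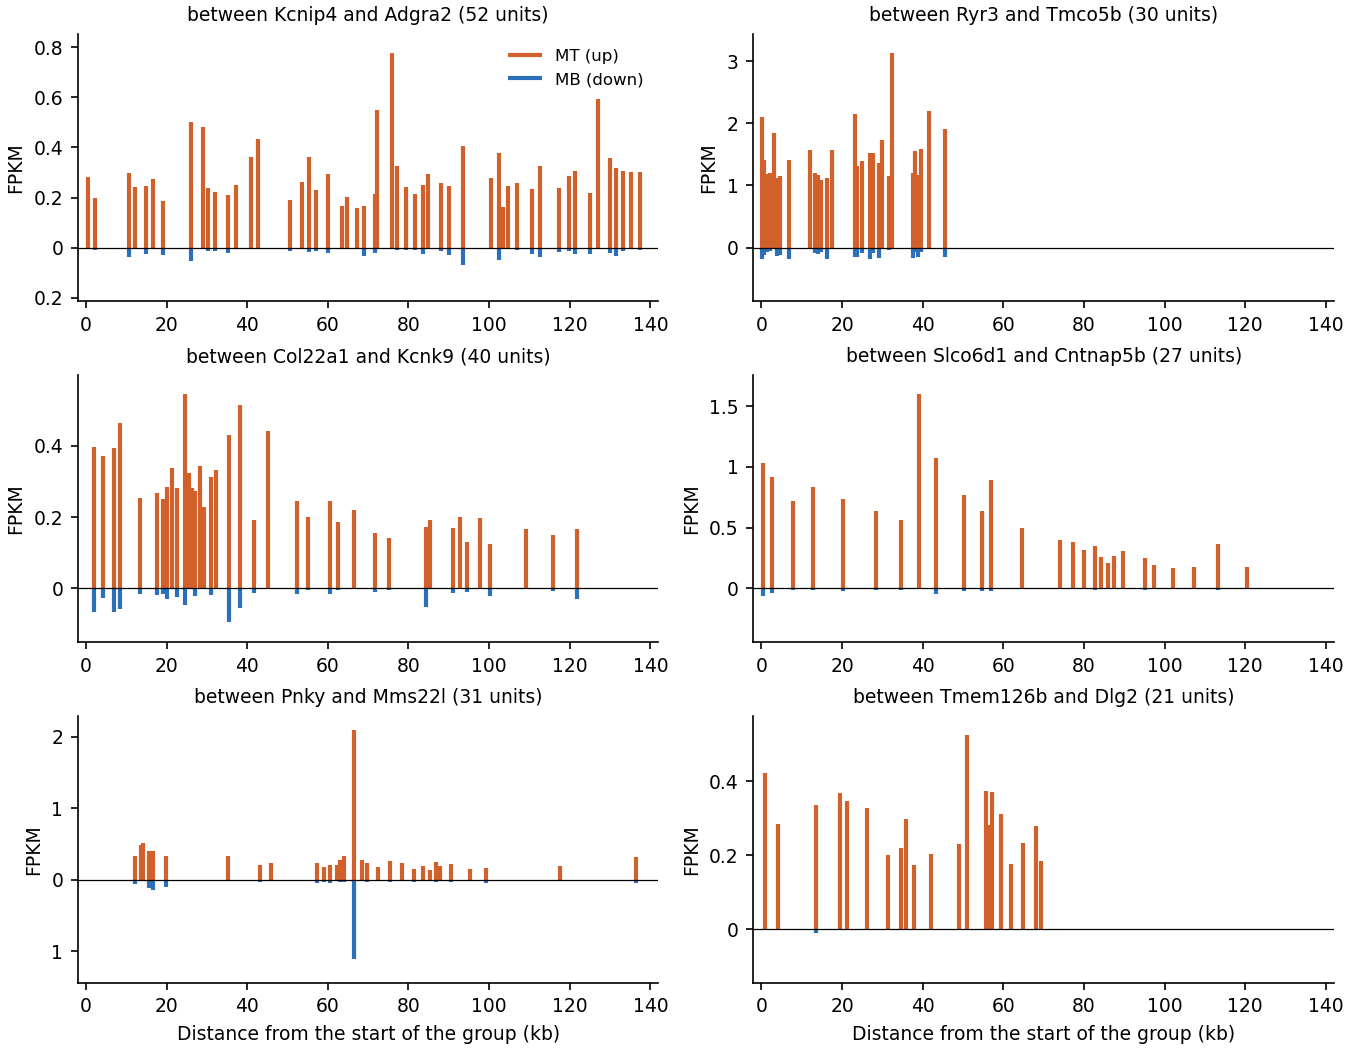
FPKM of each member in MT (upward bars) and MB (downward bars) against distance from the start of its group in kb, for 6 groups named by the genes on either side. MT is above MB along the whole of each group, with 30 units between 1.08 and 3.13 in MT at Ryr3, and with MB near 0 throughout at Dlg2.

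In most of the 82 groups of 5 or more members, the members that were apart had the same direction. In 66 groups the members that were apart were all higher in MT, in 9 they were all lower, in 4 both directions occurred, and in 3 none was apart. In 32 groups every member was apart upward. Upward members were also most of those apart over the whole list (985 against 118), and 633 of the 985 had under 3 fragments in MB. Groups of other units were not counted, so these numbers have no share to be set beside. Members of a group may be pieces of 1 transcript, so the 186 past 0.58 are fewer independent loci: they fell in 75 groups, and 66 of them (35.5%) in 5 groups.

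The 10 largest rises, taken from members with at least 20 fragments in the higher library and intervals apart, were led by XLOC_001495 (chr1:149160593-149161084). It read 0.0726 FPKM in MB from 2 fragments and 3.68 in MT from 107, a ratio of 50.97 with a counting interval of 13.8 to 426. The nearest named entry, Brinp3, 410990 bp away, rose from 27.1 to 60.4 FPKM. Pla2g4a on the other side, a phospholipase A2, went from 19.98 to 12.6. In the GENCODE annotation a nearer gene, Gm9931, lies 31520 bp from the unit. XLOC_003461 (chr1:130639038-130641647) was an unspliced block of 2610 bp with 96.6% unique 32-mers. It rose from 0.414 to 3.15 FPKM, from 84 to 670 fragments (ratio 7.61, interval 6.05 to 9.65). It lies 150161 bp from Cxcr4, the receptor of the chemokine CXCL12, which rose from 26.4 to 91.8 FPKM.

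XLOC_007867 (chr11:31445809-31449957) was the second-highest member in MT, at 17.1 FPKM after 3.96 in MB (ratio 4.32, interval 3.97 to 4.71, from 652 and 2958 fragments). It is 43.9% unique, and a unit on chromosome 17, XLOC_027539, matched it over 1968 bases at 93.5% identity and went from 0.309 to 1.02 FPKM. The genes beside it did not rise, Stc2 going from 3.61 to 1.45 and Bod1 from 48.7 to 43.2. XLOC_064887 (chrX:65748349-65801151) rose from 2.14 to 7.64 FPKM, from 999 to 5300 fragments (ratio 5.05, interval 4.72 to 5.41). It spans 52803 bp with an implied length of 8161 bases, touches an exon of the annotated Gm6806, and lies 119537 bp from Fmr1os, which read 0.0420 and 0.0312. XLOC_021016, near Adcy8, also had a long span with a short implied length, 52470 bp against 1141 bases, and went from 3.93 to 8.05 FPKM.

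The remaining rises rested on fewer fragments or on repeated sequence. XLOC_004955 was listed at 0 in MB and at 2.64 in MT from 38.5 fragments, at least 9.35-fold higher by the counting interval and 12.2-fold against the floor of 3 fragments. XLOC_040401 went from 0.424 to 3.21, and its closest copy, XLOC_038727 at 97.1% identity, from 0.353 to 1.34. XLOC_013937 on chromosome 12 went from 0.553 to 3.45 at 33.3% unique 32-mers, XLOC_047158 from 0.338 to 2.83 at 1.98% and XLOC_001017 from 0.122 to 2.11 at 10.8%. In each of these the intervals of MB and MT were apart. Of the genes beside these 5 units, Cox18, a mitochondrial inner membrane assembly factor, fell from 21.5 to 8.16 FPKM and Pcdh18, a protocadherin, from 12.5 to 7.30.

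**Figure D5:**
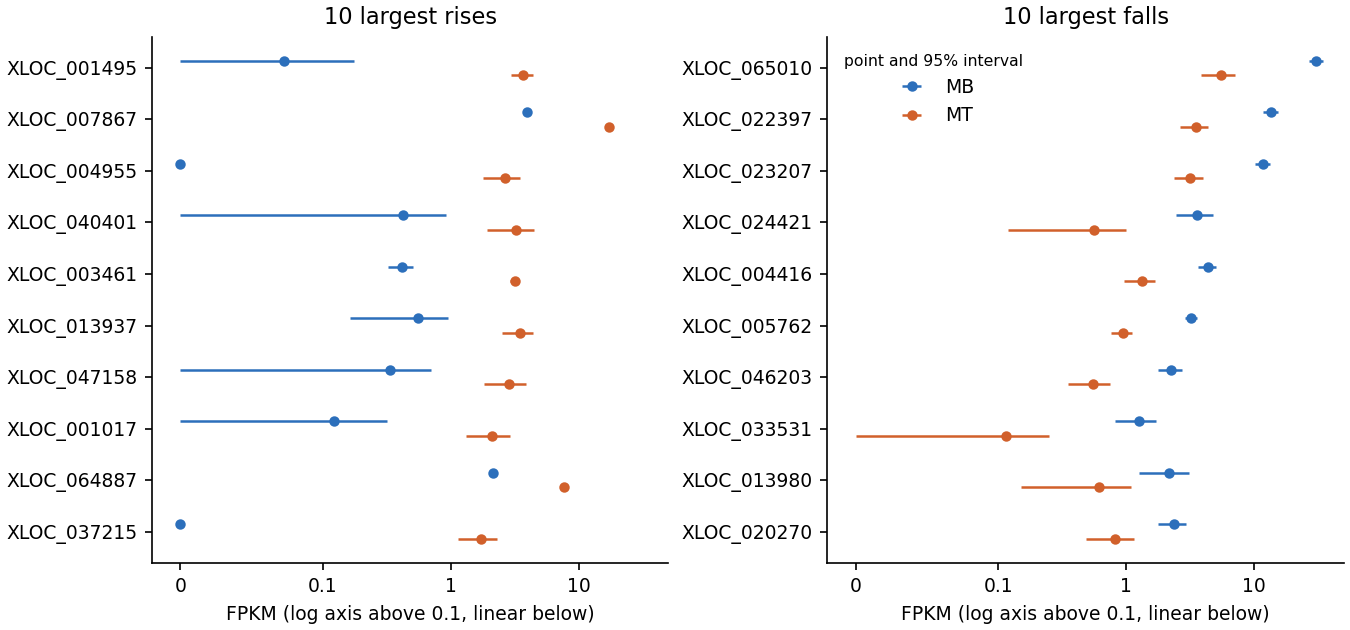
FPKM with its deposited 95% interval in MB and MT for the 10 members with the largest rise (left) and the 10 with the largest fall (right), on an axis that is logarithmic above 0.1 and linear below. The intervals are apart in all 20, since that was part of the choice, and MB intervals of several rises reach 0.

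Falls were fewer, and 4 of the 10 largest were in units under 50% unique, as were 5 of the 10 largest rises and 18.5% of all members. XLOC_065010 (chrX:90143843-90144094) had the largest, from 30.6 FPKM in MB to 5.49 in MT (238 and 46 fragments, ratio 0.184, interval 0.131 to 0.253). Its first part has the form of a B2 element, a short interspersed repeat, from general knowledge, and it is 24.9% unique. It had 4790 matches of 90% identity or more elsewhere in mm9, of which 3 covered at least 80% of it. XLOC_022397 (chr15:52309505-52309932) lies on an exon of the annotated Gm10020 and shares 72.3% of its 32-mers with Rpl15, a ribosomal protein of the large subunit. It fell from 13.5 to 3.51 FPKM, a ratio of 0.263 (interval 0.197 to 0.346), while Rpl15 itself went from 238 to 163. XLOC_066285, which shares 69.7% with Actr3, a subunit of the actin-nucleating Arp2/3 complex, read 5.00 and 4.10 FPKM with overlapping intervals beside 151 and 86.5 for Actr3. In all, 11 members shared 50% or more of their 32-mers with coding transcripts, and 4 of them (36.4%) passed 0.58 upward and 1 (9.09%) downward, beside 11.9% and 1.79% of all members. Transcripts annotated at the unit itself were not left out, and Gm10020 is typed as protein-coding. The 11 also include XLOC_001017, which shares 64.6% with Gm17492 and is 10.8% unique.

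XLOC_005762 (chr10:120069373-120070857) was the clearest fall in unique sequence. All its 32-mers occur once in mm9, and it read 3.23 FPKM in MB and 0.938 in MT, from 355 and 108 fragments (ratio 0.290, interval 0.231 to 0.360). It lies 155381 bp from Hmga2, an architectural chromatin protein of growing cells, which fell from 36.7 to 9.09. The nearer named gene, 4921513I03Rik, 131930 bp away on the other side, did not fall and read 0.162 and 0.231. XLOC_046203 (chr5:16343403-16388248), 93.2% unique with an implied length of 814 bases, fell from 2.24 to 0.549, whereas Hgf, the hepatocyte growth factor gene 218145 bp away, read 21.1 and 26.9. XLOC_020270 fell from 2.36 to 0.819 between Rap2a (16.6 to 5.12) and Ipo5, an importin (99.7 to 43.8). XLOC_023207 fell from 11.7 to 3.16 near Slc38a4 and Slc38a2, amino acid transporters that read 0.0512 and 0.0672 and 106 and 100.5. The remaining 4, XLOC_024421, XLOC_004416, XLOC_033531 and XLOC_013980, fell to between 0.116 and 1.32 FPKM from 1.27 to 4.34.

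The nearest named gene moved with a member in some cases and not in others. The 186 members up by 0.58 or more had 72 nearest genes. For 38 of these members (20.4%) the gene was also up, for 13 it was down and for 135 it passed in neither direction. Over all 1563 the gene was up for 14.9% and down for 10.0%. Of the 28 members down, 6 (21.4%) had a nearest gene that was down and 2 one that was up. In 50.7% of members the nearest gene was below 1 FPKM in both libraries. Because many members share a gene, 30 of them beside Ryr3 and Tmco5b alone, these shares describe the list and were not tested.

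At the boundary of the rule values were like those inside it. The members nearest the limit were XLOC_025896, 100108 bp from Runx1, with 0.325 and 0.145 FPKM, XLOC_052428 near Try4 with 1.32 and 2.24, and XLOC_061410 near Pdgfd with 0.0922 and 0.285. Just outside it, XLOC_057992 at 99961 bp read 0.149 and was listed at 0 in MT, XLOC_001840 read 0.0611 and 0.282, and XLOC_019083 read 0.0462 and 0.176. XLOC_052428 is 6.56% unique and lies beside T cell receptor beta segments in the annotation.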

How the data were processed

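Total RNA of C2C12 cells was sequenced after rRNA depletion, 1 library each of MB and MT. The authors aligned reads to mm9 with TopHat2 and computed FPKM with Cufflinks, per the labels; the deposited FPKM, given with a 95% interval, is scaled to transcript length and to library size and includes units assembled ab initio from these reads. Tables of the other 2 libraries hold no assembled unit and were not used. Members and gene lists were chosen with earlier results of these data known.

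Distances were computed between deposited loci, whose starts were taken as counted from 0: of 21307 named rows matched by symbol to GENCODE, 10102 start 1 base below the annotation and 600 equal to it. Fragments were implied from each interval as the square of 2 × FPKM over the distance from FPKM to the upper bound, and 85.7% (MB) and 87.0% (MT) of members under 200 fragments came within 0.02 of a whole number. Ratios of fragments were divided by 1.05, the MT to MB ratio of fragments per FPKM, and carry exact (Clopper-Pearson) binomial intervals that cover counting error only. Changes used a pseudocount of 1, which understates those of low units, and a threshold of 0.58.

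The genome given has no soft-masking, so the planned share of masked bases was replaced by the share of 32-mers occurring once. Copies came from BLAST 2.17.0 at 90% identity. Calculations ran in Python 3.11.15 (pandas 2.3.3, scipy 1.17.1) and were tested on simulated data. Units were named by fixed rules: the 6 highest in each library, the 10 largest rises and falls with intervals apart and at least 20 fragments, the 3 nearest the limit on each side, the 3 farthest, the 3 longest, and the 3 largest groups with units within 10000 bp joined. No replicate exists, so no p-value was computed.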

Additional observations from a re-analysis of the deposited data

How the results depend on the processing

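No paired analysis was possible because each condition has 1 library. Moving the distance limit to 50000 or 200000 bp gave 3006 and 564 members, and counting GENCODE genes as named loci gave 719. Members up and down by 0.58 numbered 1147 and 169 with a pseudocount of 0.1, 1196 and 190 with 0.01, 51 and 9 at a threshold of 1, 104 and 17 of 160 with an FPKM of 1 in a library, 467 and 16 after centring on named genes (shift of all changes by 0.23, the named genes' median being -0.23), 362 and 62 beyond 50000 bp, and 45 and 12 beyond 200000 bp. With at least 20 fragments 18 fell, and with units within 10000 bp joined 47 rose. The median change was 1.303 and 2.36 with pseudocounts of 0.1 and 0.01, 0.30 with at least 20 fragments, 0.48 after centring and 0.25 beyond 200000 bp. Intervals were apart in 535 up and 61 down of 779 with at least 20 fragments. Shares over all units were not computed with at least 20 fragments or with an FPKM of 1 in a library. Nor were they computed with a pseudocount of 0.01, at a threshold of 1 or with units joined. The counts under these settings therefore describe the members alone. An FPKM of 1 was reached by 45 (MB) and 141 (MT). As alternatives chosen after seeing the data, members also 100000 bp from GENCODE genes gave 78 up, 10 down, and 455 and 43 apart, those with at least 3 fragments in MB gave 114 up and 352 apart upward of 901, and mostly unique members gave counts within 1.5 times of the main ones. The 114 were 12.7% of the 901, against 18.0% of all units with at least 3 fragments in MB. These counts depend on the pseudocount because most members are below 1 FPKM; more rose than fell under every alternative run. Depth limits single units: at a median of 4 fragments in MB, a member listed at 0 is compatible with up to 3 fragments.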
